A study of Homo sapiens with 4 samples.

Results

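The genes of DNA replication licensing and of the replication fork are described here by the c-MYC peaks at their promoters. The list holds 48 genes, out of 19663 protein-coding gene symbols examined, and was set by gene function. For licensing it has the 6 subunits of the origin recognition complex, the helicase loading factors CDC6 and CDT1, and geminin (GMNN), the inhibitor of CDT1. MCM2 to MCM10, the kinase CDC7 with its activator DBF4, CDC45 and the GINS subunits follow. Fork genes are primase and subunits of the replicative polymerases, the sliding clamp PCNA and its loader RFC, and the single-strand binding protein RPA. The Okazaki fragment enzymes FEN1 and LIG1 and the topoisomerases TOP1 and TOP2A complete it. A gene was given a promoter peak in a library where the summit of a peak lay no more than 1 kb from the transcription start of any of its protein-coding transcripts. By this rule 26 of the 48 genes had a promoter peak in at least 1 c-MYC library and 22 had none.

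The transcription factor c-MYC had been mapped by ChIP-seq, in which DNA bound by a protein is pulled down with an antibody, sequenced and searched for pile-ups of reads, called peaks. The cells were MIA PaCa-2, a single established cell line of human pancreatic ductal adenocarcinoma. Every culture was treated for 8 h. The groups were DMSO (vehicle) with non-specific IgG, DMSO with c-MYC antibody, AMG510, a small-molecule inhibitor, at 100 nM with c-MYC antibody, and the MEK inhibitor trametinib at 10 nM with c-MYC antibody. Each group was 1 library, so every difference below is between 2 libraries, with no replicate check and no test. The libraries entered peak calling with 22700000 to 24800000 tags (mapped read ends), and held 2966 peaks (IgG), 9552 (DMSO c-MYC), 10378 (AMG510) and 5431 (trametinib). A summit was described by its tags, the whole number of extended reads stacked there, and by its fold enrichment, the deposited ratio of that stack to the local background. At the genome-wide background, 7 or 8 tags were enough for a call. Member promoter summits had 7 to 34 tags, counts at which counting error is large. Intervals in brackets are 95% intervals for counting error only, and are too narrow because both mates of a read pair may count as tags. Below, the peaks of a member are its promoter peaks. The absence of a peak means only that the site did not pass the caller's threshold.

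Eukaryotic cells license replication origins in the G1 phase, when the origin recognition complex, CDC6 and CDT1 load the ring of MCM2 to MCM7 onto DNA as an inactive double hexamer. In S phase, CDC7 with DBF4 phosphorylates the MCM ring, and CDC45 and GINS join it to form the active CMG helicase, behind which polymerase epsilon extends the leading strand and polymerase delta the lagging strand. c-MYC, as a heterodimer with MAX, binds the E-box CACGTG and variants of it near promoters, while the E2F factors are the textbook regulators of many of these genes at the G1 to S transition.

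The E-boxes nearest the summits are printed first, since they place the protein's best-known binding sequence against the measured peaks. Within 100 bp of a DMSO summit the palindrome CACGTG occurred at 4 members, MCM9, POLD2, POLE3 and TOP1, among 23 member peaks (some genes have more than 1), whereas 16.9% of all 4617 DMSO promoter peaks had one. The share at members was thus near that of all promoter peaks. The windows below are GRCh38 sequence on the strand of the gene, in order of DMSO fold enrichment, with the E-box in capitals.
POLD2: cactcgttagaCACGTGtgcggagcctg
POLE3: acactgtaggcCACGTGgggcggaacgg
MCM9: cctcgagcggcCACGTGcacgcgcgcac
TOP1: taaaggcccacCACGTGgctgcgcggcc
They lay at chr7:44123245-44123272 (minus strand), chr9:113410390-113410417 (minus), chr6:118935001-118935028 (minus) and chr20:41028492-41028519 (plus), respectively. The E-box was 90 bp from the DMSO summit at POLD2, 74 bp at POLE3, 13 bp at MCM9 and 22 bp at TOP1. In AMG510 the same boxes of POLD2 (63 bp) and TOP1 (31 bp) were within 100 bp of a summit, 2 of 14 member peaks against 14.4% of all promoter peaks in that list. In trametinib only the POLE3 box (51 bp) was, 1 of 8 member peaks against 17.3%.

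At 2 further members the DMSO summit fell on the noncanonical E-box CACGCG, searched on both strands. Over all DMSO promoter peaks, the share with the summit on this box was not counted. The 2 windows below were chosen after the distances were seen and have the box, or its reverse complement, in capitals.
CDC7: ggcccctccccCACGCGgtcccgctggc
DBF4: ggcgccgcggcCGCGTGacgcgttttca
The CDC7 window is chr1:91501352-91501379 and the DBF4 window chr7:87876466-87876493, both on the plus strand, and the distance from box to DMSO summit was 0 bp at each. CDC7 and DBF4 encode the catalytic subunit and the activator of the same kinase. Counting either form of the box, 8 members had a box within 100 bp of a DMSO summit, among 23 member peaks, while 37.0% of all DMSO promoter peaks did.

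No member had a promoter peak in the IgG library, where 0.559% of all protein-coding genes had one. In DMSO c-MYC 21 of 48 members (43.8%) had a promoter peak, against a background of 24.2% of all genes. With AMG510 14 members (29.2%) had one, against 15.3%, and with trametinib 8 members (16.7%), against 11.8%. The share at members was above the background in each c-MYC library, and in trametinib the gap was the smallest of the 3. Among peaks above a fold enrichment of 5, the trametinib share was below the background, as given below. A peak was present in all 3 c-MYC libraries at 4 members (8.33%), ORC6, MCM3, MCM7 and POLD2, compared with 5.59% of all genes. At least 1 c-MYC library had a peak at 54.2% of members and 31.7% of all genes.

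**Figure D1:**
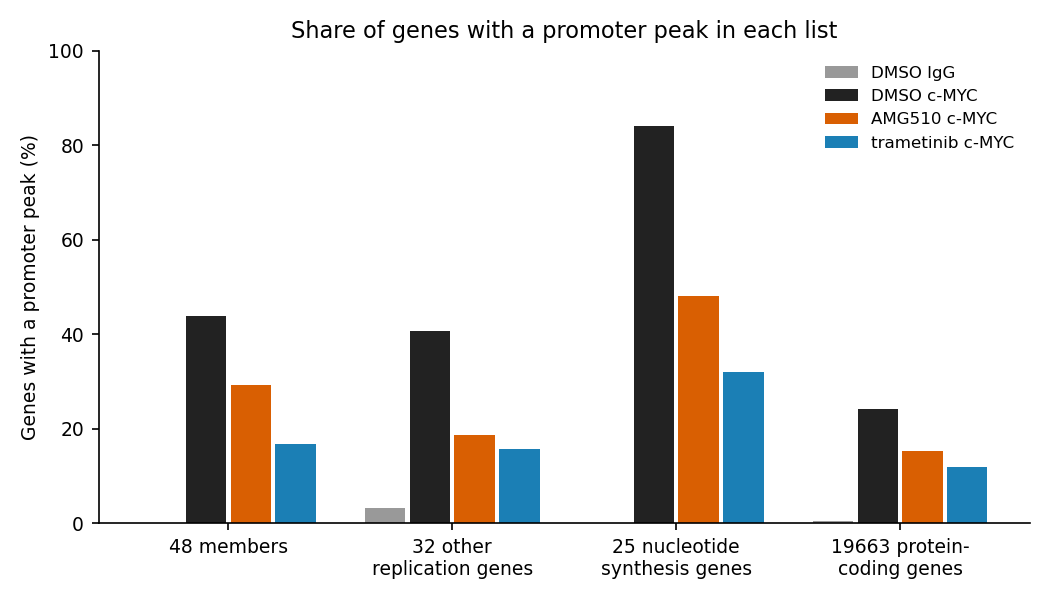
Share of genes (%, y axis) with a promoter peak in each of the 4 libraries (colours), for the 48 members, 32 other replication genes, 25 nucleotide synthesis genes and all 19663 protein-coding genes; each bar is 1 library. Members stood at 43.8% in DMSO c-MYC against 24.2% of all genes, and no member had an IgG peak.

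Of the 21 members with a DMSO peak, 11 (52.4%) also had one in AMG510, where 43% of all genes with a DMSO promoter peak did. In trametinib 6 of the 21 (28.6%) had one, below the 35.2% of all such genes. Both counts are set against the same DMSO library. Members without a DMSO peak had a call in AMG510 at 3 of 27 (11.1%), GMNN, GINS2 and RFC1, against 6.47% of all genes without a DMSO peak. In trametinib 2 of 27 (7.41%), CDC45 and RFC3, had such a call, against 4.33%. These 5 peaks had 9 to 13 tags and fold enrichments of 3.78 to 4.91, of which GMNN (4.91) and RFC3 (4.90) were above the medians of all genes with a promoter peak in their lists, 4.71 and 4.76. A promoter peak was called in DMSO and with neither drug at 8 members (16.7%), against 10.9% of all genes, namely ORC3, ORC5, CDC6, MCM10, DBF4, POLD3, PCNA and RPA1.

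Member peaks in DMSO were among the stronger ones of their list. The median over the 21 members was 19 tags (11 to 28) and a fold enrichment of 5.78, whereas all 4761 genes with a DMSO promoter peak had medians of 16 tags and 5.01. Fold enrichment was above 5 at 17 of 21 members (81.0%), compared with 50.1% of those genes. In AMG510 the members' median was 13 tags and a fold enrichment of 4.63, close to the 4.71 of all genes, and 6 of 14 members (42.9%) were above 5, compared with 37.6% of all genes. In trametinib it was 13.5 tags and 4.52, and MCM7 alone of the 8 members (12.5%) was above 5, while 41.2% of all genes with a promoter peak were. With only peaks above a fold enrichment of 5, 17 members were left with a promoter peak in DMSO, 6 with AMG510 and 1 with trametinib. Over all 19663 genes the counts were 2387, 1131 and 958. In trametinib 1 of 48 members was thus a smaller share than 958 of 19663 genes.

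**Figure D2:**
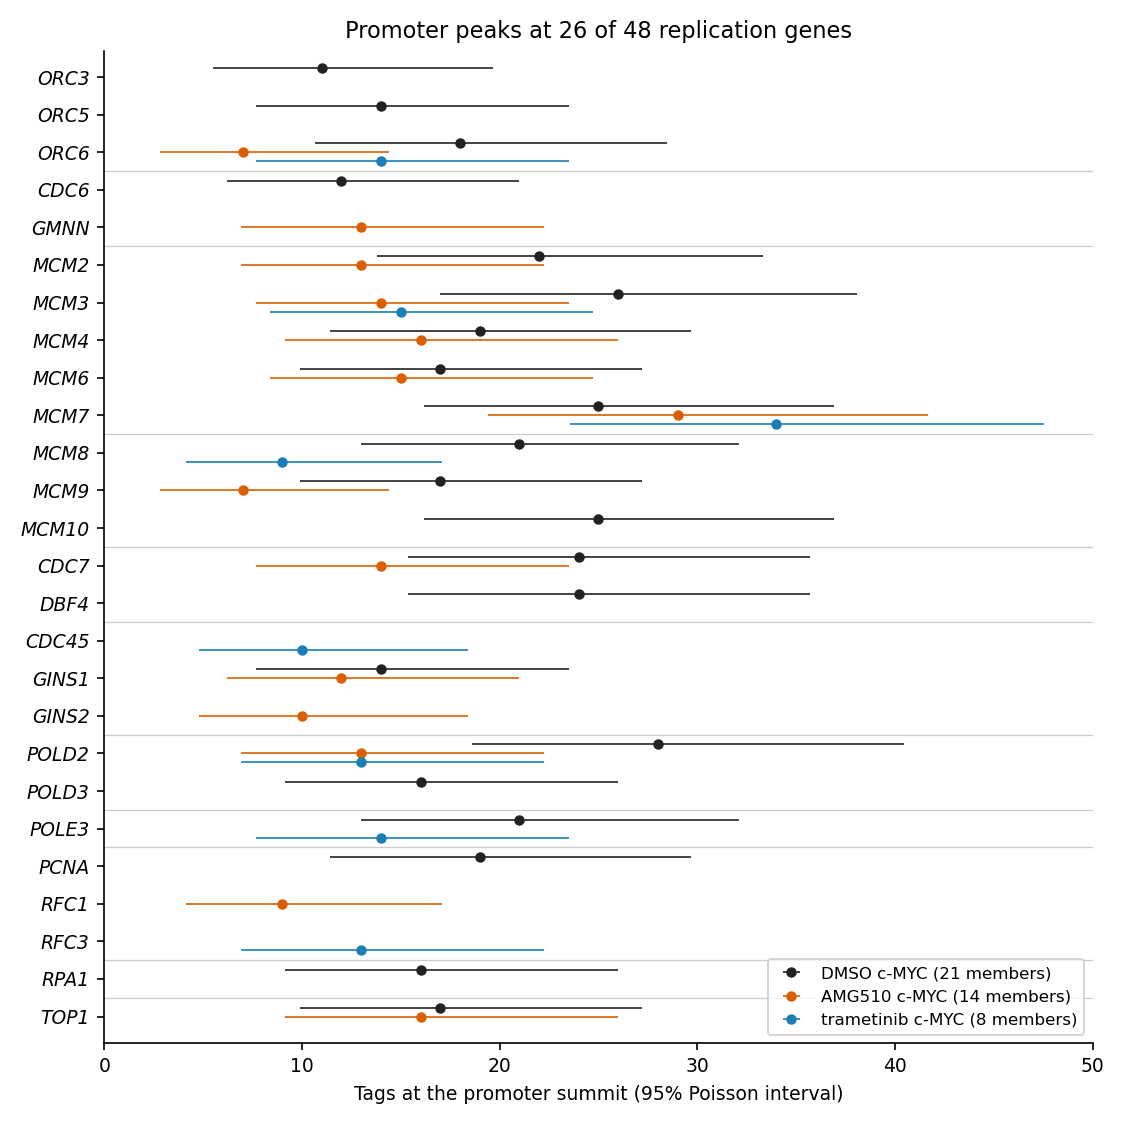
Tags at the promoter summit (x axis, with 95% Poisson intervals) for the 26 members with a promoter peak, ordered by role (y axis, grey lines between roles); colours are the 3 c-MYC libraries and a missing point means that no peak was called. MCM7 stood at 25, 29 and 34 tags, while POLD2 stood at 28 tags in DMSO and 13 in each drug library.

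Among the licensing genes, the origin recognition complex, which marks origins and is the platform for loading, had a DMSO peak at 3 of 6 subunits, ORC3, ORC5 and ORC6. ORC6, its smallest subunit, had 18 tags in DMSO (fold enrichment 5.03), 7 in AMG510 (3.25) and 14 in trametinib (4.59). All 3 summits lay in intron 1, 86 to 202 bp downstream of the nearest start, at chr16:46689721-46689935 for the DMSO peak, and AMG510 was the low library. The ORC5 peak, in coding exon 1, had 14 tags in DMSO (5.78) and was not called with either drug. ORC3 had 11 tags (4.66), the fewest of the DMSO members, at a summit 134 bp before its own start and 21 bp from the start of RARS2, the mitochondrial arginyl-tRNA synthetase. No promoter peak was called at ORC1, ORC2 or ORC4.

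Of the loading factors, CDC6, the ATPase that brings MCM rings to the origin complex, had a weak DMSO peak of 12 tags (4.07), 246 bp downstream of the canonical start. Its partner CDT1 had no promoter peak in any library. GMNN, the inhibitor of CDT1, had a peak in AMG510 alone, with 13 tags (4.91). Its summit lay in intron 1, 1245 bp downstream of the canonical start and 684 bp upstream of the nearest start, an internal one.

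The MCM2 to MCM7 helicase was the role with most calls. In DMSO 5 of its 6 subunits had a promoter peak, in AMG510 the same 5 and in trametinib 2, MCM3 and MCM7. MCM5 had no promoter peak in any library. MCM2 had 22 tags in DMSO (fold enrichment 5.57) and 13 in AMG510 (4.19), at summits 8 bp apart in intron 1, and no call in trametinib. The DMSO peak, at chr3:127598462-127598724, also lay 314 bp from the start of TPRA1, which is transcribed the other way. MCM3 had 26 tags in DMSO (8.50), 14 in AMG510 (5.63) and 15 in trametinib (4.97), with DMSO above both drugs and the DMSO peak at chr6:52284353-52284699.

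MCM6 had 17 tags in DMSO (5.51) and 15 in AMG510 (5.87), nearly level, with no call in trametinib. Its DMSO peak, chr2:135875832-135876406, was 575 bp wide with its summit in intron 1. MCM4 had a pair of DMSO peaks, of 19 tags (5.12) in the 5′ UTR and of 18 tags (4.80) upstream, the upstream one 47 bp from the start of its divergent neighbour PRKDC, the catalytic subunit of DNA-PK. The AMG510 peak at MCM4, with 16 tags (5.16), overlapped the upstream peak, at a summit 64 bp from that start and 113 bp from an upstream start of MCM4, so the peak at the canonical MCM4 start was called in DMSO only.

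MCM7 was the exception in height. It had 25 tags in DMSO (6.29; 16.2 to 36.9), 29 in AMG510 (7.56; 19.4 to 41.6) and 34 in trametinib (8.25; 23.5 to 47.5), the highest member value in each drug library. The 3 intervals overlap. Its summits lay within 30 bp of the DMSO summit, in intron 1, at chr7:100100518-100100770 in DMSO, 85 bp downstream of an internal start and 742 bp downstream of the start of the canonical transcript. By fold enrichment the peak stood at the 88.9th percentile of the DMSO list, the 98.2nd of AMG510 and the 97.5th of trametinib.

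The other MCM genes all had a DMSO peak. MCM10, which is needed for the helicase to start unwinding, had the highest fold enrichment of any member in DMSO, 8.57 with 25 tags at chr10:13161584-13161845, and no promoter call with either drug. MCM8, which acts with MCM9 in homologous recombination, had 21 tags in DMSO (6.39) upstream of the gene and 9 in trametinib (3.64) in intron 1. These summits were 1003 bp apart and the peaks did not overlap, and the DMSO summit was nearer to the divergent gene TRMT6 (138 bp) than to MCM8 (257 bp). MCM9 had 17 tags in DMSO (5.31), at the E-box printed above, and 7 in AMG510 (3.29), the fewest that a call in that library allowed at the genome-wide background.

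Both genes of the firing kinase had a DMSO peak of 24 tags. At CDC7 the fold enrichment was 7.41 in DMSO and 5.09 in AMG510, with 14 tags, and no peak was called in trametinib. DBF4 (7.01) was called in DMSO alone, at chr7:87876341-87876800, with its summit 16 bp before the DBF4 start and 117 bp from that of SLC25A40.

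CDC45 and GINS, the parts that turn the MCM ring into the CMG helicase, had promoter calls at 3 of 5 genes over the c-MYC libraries. By library, 1 gene was called with vehicle, 2 with AMG510 and 1 with trametinib. GINS1 had 14 tags in DMSO (4.94) in coding exon 1 and another DMSO peak of 13 tags (3.87) with its summit 17020 bp before the canonical start, 355 bp from a far start of GINS1 and 182 bp from a start of ABHD12. Its AMG510 peak, 12 tags (4.11), lay on that side only, 937 bp from the far start and 63 bp from the start of ABHD12. GINS2 (10 tags, 3.88) was called in AMG510 and CDC45 (10 tags, 3.78) in trametinib, the latter summit 5 bp from the start of UFD1 and 318 bp from that of CDC45. GINS3 and GINS4 had no promoter peak.

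Among the fork genes, polymerase alpha and primase (POLA1, POLA2, PRIM1, PRIM2), which lay down primers, had no promoter peak in any library. In polymerase delta the accessory subunit POLD2 had the most tags of any member in DMSO, 28 (fold enrichment 7.57), and 13 in AMG510 (4.36) and in trametinib (4.44). The DMSO peak, chr7:44123231-44123502, had its summit 11 bp downstream of a start. POLD3 had 16 tags in DMSO (6.38) 99229 bp before its canonical start and 498 bp before another, 38 bp from the start of LIPT2, a lipoyl transferase, and POLD1, the catalytic subunit, had no promoter peak.

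Of the 3 polymerase epsilon subunits among the members, only the histone-fold subunit POLE3 had a peak. POLE3 had 21 tags in DMSO (6.56) and 14 in trametinib (4.08), and no AMG510 call. The catalytic subunit POLE and POLE2 had no promoter peak. A further subunit, POLE4, was placed in the list of other replication genes given below. Its promoter peak had 30 tags with vehicle (8.87), 17 after AMG510 and 20 after trametinib. PCNA, the clamp that tethers the polymerases, had 19 tags in DMSO alone (5.53), in intron 1 at chr20:5119455-5119711, 426 bp downstream of the canonical start. Of its loader, RFC1 had 9 tags in AMG510 (4.14) and RFC3 had 13 in trametinib (4.90), and RFC2, RFC4 and RFC5 had no promoter peak. RPA1, the large subunit of RPA, had 16 tags in DMSO (5.87), 87 bp from the start of SMYD4 and 156 bp from its own, and RPA2 and RPA3 had no promoter peak. FEN1 and LIG1 had no promoter peak. TOP1, which relaxes supercoils, had 17 tags in DMSO (4.85) and 16 in AMG510 (5.14) at the upstream E-box printed above, with summits 9 bp apart, and TOP2A had no promoter peak.

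At the members with a promoter peak in both libraries, the ratio of summit tags was compared after scaling to the tags in calling. In AMG510 10 of 11 members were lower than in DMSO by tags and MCM7 was higher. At GINS1 and MCM4 the peaks compared did not overlap, with summits 17809 and 942 bp apart. The median log2 ratio was −0.78 (−1.38 to 0.19), against −0.49 over all 2045 genes with a peak in both, of which 88.0% were lower. The log2 ratio of the summed tags of the 11 members was −0.56 (−0.86 to −0.26), and over the 9 with overlapping peaks, 8 of them lower, −0.62 (−0.95 to −0.29). Single intervals left out 0 only at ORC6, −1.38 (−2.88 to −0.06), and POLD2, −1.13 (−2.20 to −0.13).

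In trametinib 5 of 6 members were lower and MCM7, at 0.40 (−0.39 to 1.20), was higher. The median was −0.74 (−1.27 to 0.40), against −0.46 over 1678 genes, of which 85.4% were lower. The log2 ratio of the summed tags of the 6 members was −0.54 (−0.92 to −0.15). Over the 5 with overlapping peaks, 4 of them lower, it was −0.44 (−0.85 to −0.03). Intervals left out 0 at MCM8, −1.27 (−2.58 to −0.08), where the peaks did not overlap, and at POLD2, −1.15 (−2.23 to −0.16). Reads had been extended to 177 bp in DMSO, 157 bp in AMG510 and 163 bp in trametinib. With summit tags scaled to the genome-wide background, which takes the extension into account, the member medians were −0.61 in AMG510 and −0.62 in trametinib. The medians over all genes were not rescaled in this way, and any other source of the lower stacks was not tested. By the ratio of fold enrichments the AMG510 median was −0.41, against −0.20 over all genes, and 4 of the 11 members were higher than in DMSO, MCM7 (0.27), MCM6 (0.09), TOP1 (0.08) and MCM4 (0.01), so the direction of MCM4, MCM6 and TOP1 depended on the measure. In trametinib MCM7 was again the only member higher by that ratio.

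**Figure D3:**
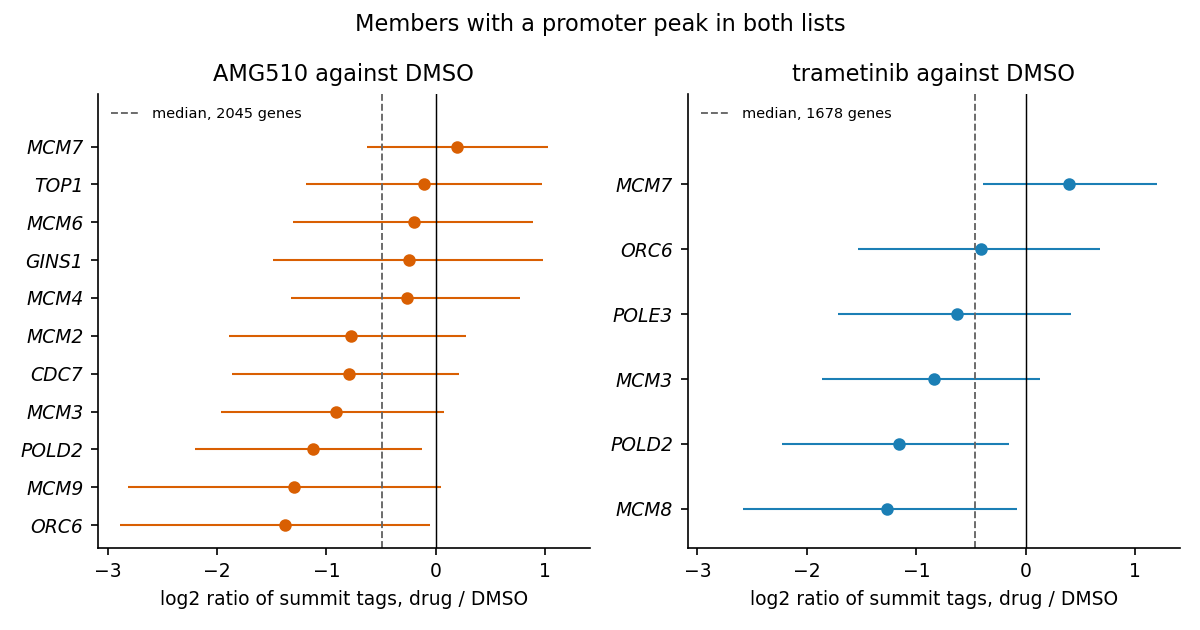
Log2 ratio of scaled summit tags, drug over DMSO (x axis), for the 11 members with a peak in AMG510 and DMSO (left) and the 6 with a peak in trametinib and DMSO (right); bars are 95% binomial intervals for counting error, the solid line is 0 and the dashed line the median of all genes with a peak in both. By tags, MCM7 is the one member to the right of 0 in each panel.

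The DMSO height of members with and without an AMG510 peak differed in order by measure. The 11 members also called there had a median DMSO fold enrichment of 5.51 (4.85 to 8.50) and the 10 not called had 6.13 (4.07 to 8.57), MCM10 and DBF4 among the latter. Over all genes the order was the other way, 5.56 where also called and 4.70 where not. By tags the members had 19 where also called and 17.5 where not, the same order as over all genes (20 and 15). In trametinib the members also called had 6.47 and those not called 5.53, the same order as over all genes (5.71 and 4.75).

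Many member promoters are shared with another gene. In DMSO the summit lay within 1 kb of a start of another protein-coding gene at 10 of 21 members (47.6%), compared with 24.1% of all genes with a DMSO promoter peak, and the other gene's start was the nearer one at 4 of the 10, ORC3, MCM8, POLD3 and RPA1. Such a peak cannot be assigned to either gene. In the c-MYC libraries 26 of the 45 member peaks had their summit in intron 1, 12 upstream of the canonical transcript, 4 in a 5′ UTR and 3 in coding sequence. The median distance from summit to nearest start was 149 bp in DMSO, against 181 bp over all genes.

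**Figure D4:**
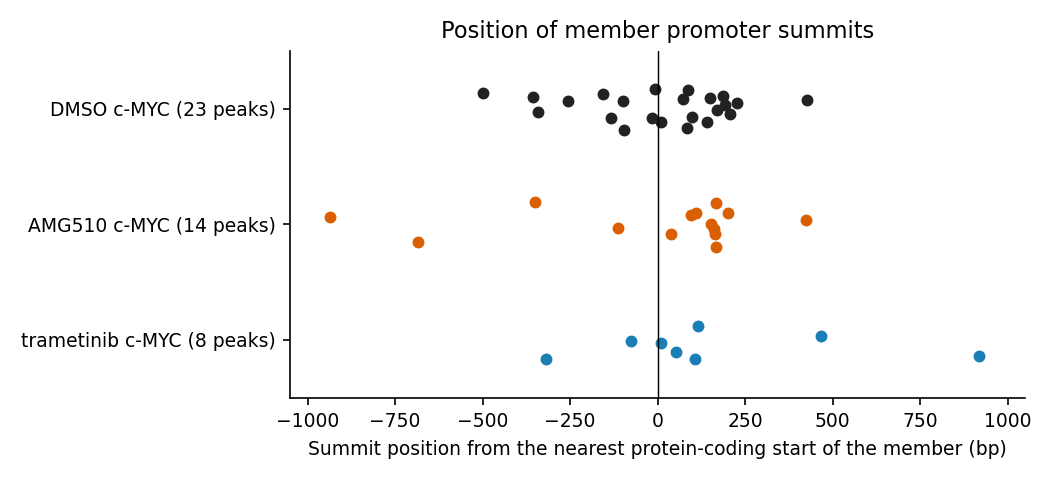
Position of the summit relative to the nearest protein-coding start of the member (x axis, bp, positive downstream) for the 23 DMSO, 14 AMG510 and 8 trametinib member peaks (rows, vertical scatter for visibility only). The farthest points are 937 bp upstream (GINS1, AMG510) and 919 bp downstream (RFC3, trametinib).

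The limit of 1 kb was set by the rule. Just inside it were GINS1 in AMG510 (937 bp), RFC3 in trametinib (919 bp) and GMNN in AMG510 (684 bp). Just outside were a trametinib peak at MCM3 (1357 bp, 11 tags), and DMSO peaks at MCM9 (1550 bp, 15 tags), ORC5 (2041 bp, 10 tags) and RPA3 (2969 bp, 10 tags). Of these, only RPA3 had no promoter peak of its own. At the 22 members without any promoter peak, the nearest DMSO summit was at a median distance of 71354.5 bp, and for 3 of them it was under 10 kb.

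Promoter sequence that the rule did not use was compared in RefSeq windows (GRCh38.p14) from 250 bp before to 50 bp after the gene start, with 42 of 48 members matched and 15307 protein-coding genes as the background. An E2F site, TTTGGCGC or TTTCCCGC on either strand, occurred at 16 of the 42 (38.1%), compared with 3.09% of all promoters. The CCAAT box, searched as CCAAT on both strands, occurred at 23 (54.8%) against 36.6%, the canonical E-box at 6 (14.3%) against 8.90% and CACGCG at 12 (28.6%) against 14.9%. E2F sites were found at 8 of 19 matched members with a DMSO promoter peak and at 8 of 23 without one. They are shown, with the site or its reverse complement in capitals, for the ORC, CDC6 and MCM genes with a DMSO peak, on the strand of the gene, taking the site nearer the summit at MCM6, which has a pair.
ORC3: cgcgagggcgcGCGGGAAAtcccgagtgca
CDC6: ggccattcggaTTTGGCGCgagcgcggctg
MCM3: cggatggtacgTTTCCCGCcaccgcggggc
MCM6: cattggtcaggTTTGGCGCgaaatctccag
MCM7: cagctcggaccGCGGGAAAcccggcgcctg
MCM8: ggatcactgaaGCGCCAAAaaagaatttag
The windows are chr6:87590112-87590141 (plus), chr17:40287875-40287904 (plus), chr6:52284898-52284927 (minus), chr2:135876515-135876544 (minus), chr7:100101566-100101595 (minus) and chr20:5950667-5950696 (plus). No E2F site of the 8 genes fell inside the DMSO c-MYC peak, and in the same windows neither did the canonical E-box at any of 4 genes with a DMSO peak, while CACGCG did at 1 of 8, DBF4. These counts were partly fixed by the windows, because many DMSO peaks lay partly or wholly outside them. The peaks of CDC6, GINS1, MCM7 and PCNA, and for the E-box also those of MCM2 and RPA1, did not overlap the window. The counts therefore do not tell whether c-MYC peaks avoid these sites. The distance from site to DMSO summit was 190 bp at ORC3, 232 bp at CDC6, 355 bp at MCM3, 291 bp at MCM6, 922 bp at MCM7 and 283 bp at MCM8. At the other members with both, it was 195 bp at GINS1 and 7142 bp at PCNA, whose RefSeq window lies at a start upstream of the one with the peak. A sequence match is not evidence of binding.

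**Figure D5:**
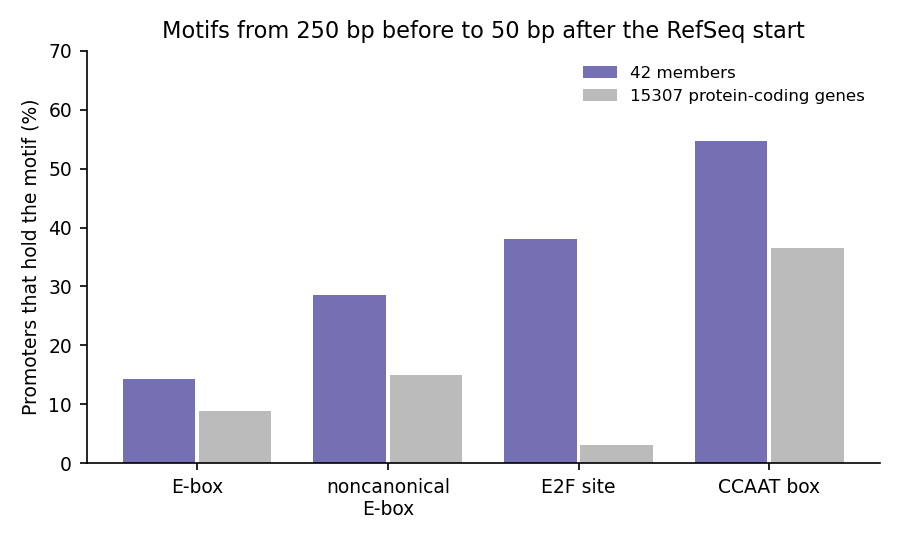
Share of promoters (%, y axis) that hold each motif at least once on either strand (x axis), for the 42 members matched and for 15307 protein-coding genes. The E2F site stands at 38.1% of members and 3.09% of all promoters.

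A list of 32 other replication genes (checkpoint, histone chaperone and accessory factors) had a DMSO promoter peak at 13 (40.6%), an AMG510 peak at 6, a trametinib peak at 5 and an IgG peak at 1. Its highest DMSO fold enrichments were at RNASEH2B (9.08, 33 tags), a subunit of RNase H2, POLE4 (8.87, 30 tags), CHTF8 (7.80, 26 tags) and MCMBP (5.51, 20 tags), which binds MCM proteins. The share in DMSO was near that of the 48 members.

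A list of 25 nucleotide synthesis genes, which make the substrates of the fork, had a DMSO promoter peak at 21 (84%), an AMG510 peak at 12 (48%), a trametinib peak at 8 (32%) and no IgG peak. NME1, a nucleoside diphosphate kinase, had 68 tags in DMSO (fold enrichment 14.7) and 22 in each drug library. CTPS1, the CTP synthase, had 40 tags (8.79) in DMSO, 29 in AMG510 and 21 in trametinib. ATIC, of purine synthesis, had 29 (8.71) in DMSO and 20 in AMG510, and the promoter that PAICS and PPAT share had 29 (8.67), 19 and 20. Next by fold enrichment was RRM2, a subunit of ribonucleotide reductase named outside the rule after its values were seen, with 31 tags in DMSO (7.16) and no peak in either drug library. Of the genes with a DMSO peak in this list, 57.1% also had one in AMG510 and 33.3% in trametinib, beside 52.4% and 28.6% for the members.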

How the data were processed

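c-MYC and IgG ChIP-seq peak lists of MIA PaCa-2 cells were analysed, 1 library for each of 4 groups taken from the sample titles. According to the methods and the submitters' processing notes, the authors trimmed (Trimmomatic 0.39) and aligned reads (BWA 0.7.17, GRCh38) and filtered them with SAMtools 1.9 and Picard. They converted the alignments to intervals with bedtools 2.27.1 and called peaks in each library with MACS2 2.2.7.1 at q = 0.05. Peaks on the ENCODE exclusion list were then removed, and the methods do not state that IgG was the control in calling. What AMG510 inhibits is not reported here. The lists were deposited with a score, a fold enrichment (ratio of the summit stack to background), −log10 p-values and −log10 q-values. The deposited score and −log10 values filtered or described peaks.

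Whole tag stacks were recovered from the deposited ratio and −log10 p-value in 100% of peaks, and tags in calling from the genome background at a genome size of 2700000000 bp. This recovery was tested on simulated data. GENCODE 44 starts, Python 3.11.15, SciPy 1.17.1, pandas 2.3.3 and pysam 0.24.0 were used. Values were given in full for members with a promoter peak in at least 2 c-MYC libraries, or in 1 with a fold enrichment above 5. The peak of largest fold enrichment stood for a gene. The members and lists were chosen with earlier results of these data known. Tag ratios carry exact binomial intervals. Alternatives were windows of 0.5 and 2 kb, filters, transcript types and motif settings.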

Additional observations from a re-analysis of the deposited data

How the results depend on the processing

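Of 54 alternative values for 9 results, 42 stayed within their limits and 12 moved. A count stayed if it changed by a factor of no more than 1.5. The fall in DMSO from 21 members to 14 with a score above 60 thus counted as staying. The limits for the median log2 ratios came from the width of the interval of the summed tags. Only these ratios could reverse, and none did. The IgG count was 0, so stricter filters could not move it. With a fold enrichment above 5, members with a promoter peak numbered 6 in AMG510 and 1 in trametinib, and those that also had a DMSO peak numbered 5 and 1 (of 17). With a score above 60, 1 member was left in each drug library, MCM7, and it was also the 1 (of 14) that had a DMSO peak. With the same number of top peaks taken from each list, AMG510 had 9 members. The AMG510 median log2 ratio was −0.41 from fold enrichments. Members with an E-box at the DMSO summit were 2 within 50 bp and 8 when the noncanonical box was counted. The cause of these moves was not tested. Tags over the genome-wide background and overlapping peaks only were added after the data were seen. No paired analysis was possible because a group is 1 library here, which also leaves no replicate to omit. With 7 to 34 tags at a member summit, most single differences could not be told from counting error, and a site without a peak has no value here.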

Other observations

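Peaks inside the gene bodies of the members, outside 1 kb of their starts, numbered 2 in IgG (LIG1 and PRIM2), 1 in DMSO c-MYC (ORC5), 6 at 5 members in AMG510 (DBF4, POLA1, POLD1, PRIM2 and TOP1) and 5 at 4 members in trametinib (GINS4, MCM10, MCM3 and ORC1). The share of members with such a peak was 4.17%, 2.08%, 10.4% and 8.33%, beside 5.42%, 9.94%, 13.3% and 6.59% of all protein-coding genes. The highest fold enrichment among them was 6.46, with 16 tags, in intron 10 of DBF4 in AMG510, where the DBF4 promoter had no call. PRIM2, a subunit of primase, had a peak in intron 7 in both IgG (7 tags) and AMG510 (9 tags), at different positions. POLA1 had 2 in AMG510, of 9 and 12 tags, and ORC1 had 2 in trametinib, of 9 and 12 tags, although neither gene had a promoter peak in any library.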
